A study of Oryza sativa with 4 samples.

Results

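The growth-regulating factors OsGRF6 to OsGRF12 of rice, Oryza sativa, are described here as 7 loci, taken by their locus identifiers from a list drawn up with earlier results of these data known. All 7 were found among the 55986 loci of the deposited expression table. Growth-regulating factors are plant transcription factors that keep cells of young organs dividing. They bind DNA through a WRC domain and bind their coactivators, the GRF-interacting factors, through a QLQ domain. The microRNA miR396 pairs with transcripts of many members of the family and lowers them, so that in growing plants GRF transcripts are usually most abundant in meristems and young organs and decline as tissue matures.

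The series held 4 libraries, 1 in each of 4 groups, and addresses which genes OsGRF6 controls in the rice inflorescence. RNA was taken from panicles (inflorescences) that were forming secondary branches. One RNA library was from plants with the transgene p35S:MIM396, in which the 35S promoter, active in most tissues, drives a decoy target that sequesters miR396, and the other from wild-type Yutai B. The chromatin libraries, an anti-GFP immunoprecipitate and its input, came from callus, a cultured undifferentiated tissue, of lines carrying p35S:GRF6-GFP. In that callus OsGRF6 is thus made outside its own promoter. The labels do not give the number of plants or of transgenic lines behind a library. With 1 library per group no difference has a replicate error and none was tested. The 95% intervals given with values reflect the counting of reads and nothing else.

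The RNA libraries also differed in markers of tissue. Recovered reads totalled 16337526 in wild type and 13125593 in MIM396. Levels are in FPKM, here fragments scaled by transcript length and by the authors' own scaling of each library. The deposited FPKM summed to 849095 in wild type and 506480 in MIM396, so they were not set to equal totals. A list of 14 photosynthesis loci, markers of green tissue, had a summed level of 93863 FPKM in wild type, against 61.9 FPKM in MIM396. These loci took 9.65% of all wild-type reads and 0.0104% of MIM396 reads. A locus is called expressed below where its mean over the RNA libraries reached 1 FPKM. All 13 expressed loci of the list were lower in MIM396 by 2-fold or more, against 27.3% of all expressed loci. The other locus of the list had only 9 reads in wild type and 0 reads in MIM396. A list of 12 panicle meristem loci ran the other way in its sum, though not at every locus. Its summed level was 152 FPKM in wild type, from 0 to 110.75 per locus, and 448 FPKM in MIM396, from 0.103 to 134 per locus. Of these 12, 6 had 0 reads in the wild-type library and none had 0 in MIM396, but 2 of the 6, LOC_Os06g45460 and LOC_Os07g47330, had only 2 and 7 reads in MIM396. LOC_Os03g54160, with 110.75 FPKM, made up most of the wild-type sum, and LOC_Os02g52340 had 37.3 FPKM there. The identities of both lists rest on general knowledge, because the files do not name these loci. The median wild-type level of the 12 loci on the panicle meristem list was 0.0653 FPKM. The library labelled wild type thus had reads for some loci of that list and none for others. Among the latter were LOC_Os03g51690 and LOC_Os04g51000, with 3988 and 1448 reads in MIM396. Below, "the wild-type library" means the library with that label. The part of these marker differences in the results that follow was not tested. In bulk tissue, fewer cells of a type and less RNA per cell cannot be told apart.

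Of the 7 growth-regulating factors, 6 were higher in MIM396 by 2-fold or more on the log2(FPKM + 1) scale, none was lower by that much, and OsGRF11 was neither. Among all 19456 expressed loci, 23.1% were higher and 27.3% lower by the same limit. At a limit of 16-fold, 5 members were higher, against 1.87% of those loci. The median log2 ratio of the members was 4.83, and that of all expressed loci was 0.00. All 7 members counted as expressed, but OsGRF6, OsGRF7, OsGRF9, OsGRF10 and OsGRF12 were under 1 FPKM in wild type and passed through the MIM396 library, so the choice of loci with enough reads favours a difference for those 5. Among all 55986 loci with no minimum, 8.65% were past the 2-fold limit upward.

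OsGRF6, the factor for which the series is titled (LOC_Os03g51970, chromosome 3, 29823448 to 29825818), had 2 reads in the wild-type library, a level of 0.0818 FPKM (0.00991 to 0.296). In the MIM396 library it had 1887 reads and a level of 62.0 FPKM (59.3 to 64.9). The counting intervals lie far apart, and the ratio of scaled reads was 753-fold (208 to 6225), wide because it rests on 2 wild-type reads. Of the 19456 loci, 69 had a higher log2 ratio than OsGRF6. In MIM396 its level exceeded that of 92.9% of those loci, and in wild type that of 3.08%.

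OsGRF7, which acts on leaf angle and plant form in rice (LOC_Os12g29980, chromosome 12, 17915627 to 17919555), was close to OsGRF6 in both libraries. It also had 2 wild-type reads, 0.0815 FPKM (0.00988 to 0.295), and it had 1557 reads in MIM396, 49.9 FPKM (47.5 to 52.5). The ratio of scaled reads was 622-fold (172 to 5138). OsGRF6 and OsGRF7 could not be told apart in wild type, where each rests on a pair of reads.

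OsGRF8 and OsGRF9 were detected in wild type by more than a few reads. OsGRF8, known for a part in insect resistance through flavonoid synthesis (LOC_Os11g35030, chromosome 11, 20521764 to 20525365), had 24 reads and 1.05 FPKM in wild type (0.671 to 1.56). Its MIM396 level was 48.4 FPKM (45.9 to 51.0) from 1413 reads, a ratio of scaled reads of 47.0 (31.5 to 73.6). OsGRF9 (LOC_Os03g47140, chromosome 3, 26679038 to 26682188) had 26 wild-type reads, 0.967 FPKM (0.632 to 1.42), and 1843 MIM396 reads, 55.0 FPKM (52.6 to 57.6). Its ratio of 56.6 (38.5 to 86.9) overlaps that of OsGRF8, and both ratios lie below the intervals of OsGRF6 and OsGRF7.

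OsGRF10 and OsGRF12 had 0 wild-type reads. OsGRF10, which represses a KNOX meristem gene in rice (LOC_Os02g45570, chromosome 2, 27727641 to 27728982), had 596 reads and 37.4 FPKM (34.5 to 40.5) in MIM396. A count of 0 allows up to 3 reads, which would be 0.236 FPKM at the reads per FPKM of the MIM396 library, so OsGRF10 was at least 159-fold higher in scaled reads against that floor, and the 95% interval of its ratio starts lower, at 129. OsGRF12 (LOC_Os04g48510, chromosome 4, 28921894 to 28923696) was the least abundant member in MIM396, with 92 reads and 3.58 FPKM (2.88 to 4.39). Its 0 wild-type reads allow up to 0.146 FPKM, and it was at least 24.5-fold higher in scaled reads against the same floor, with an interval that starts at 19.5. A lower ratio for OsGRF12 than for OsGRF10 is not shown, since both are lower bounds. At a pseudocount of 5 FPKM, OsGRF12 fell under the 2-fold limit.

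OsGRF11 (LOC_Os07g28430, chromosome 7, 16622546 to 16625292) differed from the other 6 members. It had 511 reads and 24.3 FPKM (22.3 to 26.5) in wild type, and 862 reads and 33.0 FPKM (30.8 to 35.3) in MIM396. Its ratio of scaled reads was 1.35 (1.21 to 1.51), an interval that excludes 1 under the authors' scaling, as far as counting error goes, and lies below the interval of every other member with wild-type reads. In wild type it stood above 73.9% of the 19456 loci, and in MIM396 above 84.4%. The 2-fold limit was passed with totals brought to equality, at a log2 ratio of 1.14.

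**Figure D1:**
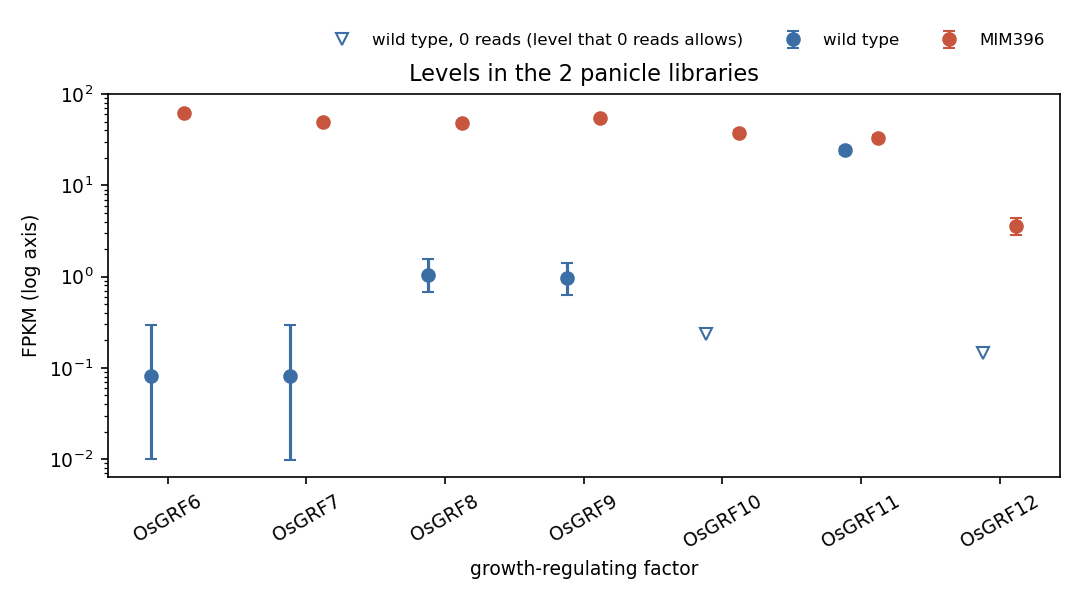
FPKM of OsGRF6 to OsGRF12 (log axis) in the wild-type library (blue) and the MIM396 library (red), 1 library each, with 95% exact Poisson intervals of the reads. Open triangles mark the level that 0 wild-type reads allow, 0.236 FPKM for OsGRF10 and 0.146 FPKM for OsGRF12, and only OsGRF11 has points of similar height, at 24.3 and 33.0 FPKM.

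The makeup of the group differed accordingly. The 7 members summed to 26.5 FPKM in wild type, of which OsGRF11 held 91.8%, OsGRF8 3.95% and OsGRF9 3.65%. In MIM396 they summed to 289 FPKM, 10.9 times as much, with OsGRF6 at 21.4%, OsGRF9 at 19.0%, OsGRF7 at 17.3%, OsGRF8 at 16.7%, OsGRF10 at 12.9%, OsGRF11 at 11.4% and OsGRF12 at 1.24%. Without OsGRF11 the sums were 2.18 and 256 FPKM. In the MIM396 order of levels, OsGRF6, OsGRF9 and OsGRF7 followed each other with intervals that did not overlap. The intervals of OsGRF7 and OsGRF8 overlapped, as did those of OsGRF10 and OsGRF11, so neither pair is ordered beyond counting error. This order rests on the transcript lengths behind the deposited FPKM: per length of the locus interval, OsGRF10 held 14.9% of the MIM396 sum, above OsGRF7 at 13.3% and OsGRF8 at 13.2%. In wild type the interval of OsGRF8 overlapped that of OsGRF9.

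Loci with MIM396 levels like those of most members were described beside them. Between 30 and 70 FPKM in MIM396, a band set after the values were seen, lay 6 members and 2222 loci in all. Of those loci, 6.53% were at least 16-fold higher in MIM396, 5.13% were under 1 FPKM in wild type, and 55.2% were within 2-fold, with a median wild-type level of 27.2 FPKM. Of the 6 members in the band, 5 were past 16-fold and 4 were under 1 FPKM in wild type. These member counts restate the levels given above and are no separate result. The panicle meristem loci shared this pattern in part: of the 9 expressed ones, 7 were past the 2-fold limit upward, but 6 of these 7 were under 1 FPKM in wild type and counted as expressed through MIM396. The median log2 ratio of all 12 was 2.53. Of 10 loci listed as floral organ markers, 7 were expressed, 6 of them higher (4 of these under 1 FPKM in wild type) and 1 lower. In wild type, 5 of the 10 had 0 reads. Among all expressed loci, 23.1% were past the 2-fold limit upward.

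**Figure D2:**
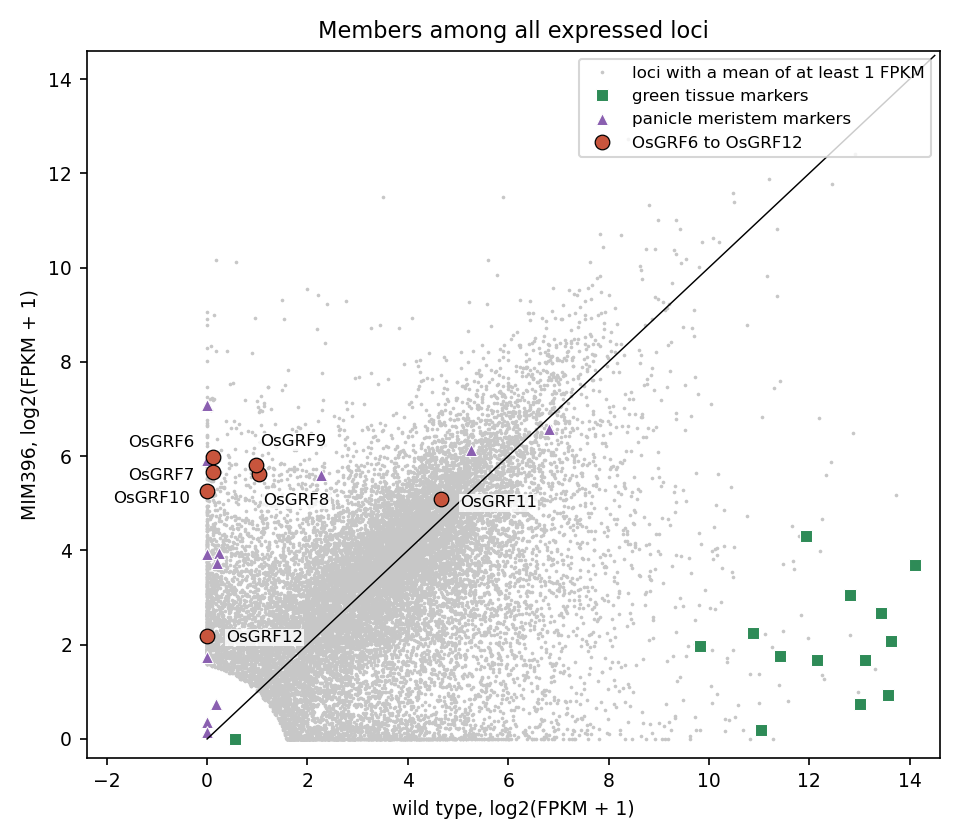
Level in wild type (x axis) and MIM396 (y axis), both as log2(FPKM + 1), of the 19456 expressed loci (grey, mean over both libraries 1 FPKM or more), the 7 members (red), 14 green tissue markers (squares) and 12 panicle meristem markers (triangles), with the line of equal levels. OsGRF11 lies near the line and the other 6 members lie near the left edge beside several panicle meristem loci, while 13 of the 14 green tissue markers lie at the lower right.

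Other parts of the pathway were counted from lists whose identities also rest on general knowledge. All 5 loci listed as OsGRF1 to OsGRF5 were higher in MIM396 by 2-fold or more, with a median log2 ratio of 3.77, wild-type levels of 0 to 2.58 FPKM and MIM396 levels of 7.39 to 56.2 FPKM. Of 3 loci listed as GRF-interacting factors, the coactivators, 2 were past the 2-fold limit upward and 1 was neither. LOC_Os03g52320 had 0 reads in wild type and 2863 reads, 130.8 FPKM, in MIM396. LOC_Os12g31350 had 12.9 and 64.4 FPKM, and LOC_Os11g40100 had 22.2 and 37.9 FPKM. Of 4 loci listed as reported downstream of OsGRF6, 3 were past it. LOC_Os10g33780 had 2 and 214 reads, LOC_Os03g54170 had 3 and 296 reads and LOC_Os03g43670 had 56 and 602 reads, while LOC_Os10g42690 had 3.63 and 3.95 FPKM. Of the loci counted higher on these lists, 3, 1 and 2 in turn were under 1 FPKM in wild type and counted as expressed through MIM396. The share of all expressed loci past that limit upward was 23.1%, and 40.2% with library totals brought to equality. LOC_Os10g33780 and LOC_Os03g54170 are also on the list of panicle meristem markers.

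The loci next to each member were described as well. Of the 14 neighbours, none was higher in MIM396 by 2-fold or more, 3 were lower, 3 were neither, and 8 were not expressed by the limit of 1 FPKM. Among all expressed loci, 23.1% were higher and 27.3% lower. With only 6 expressed neighbours, 0 higher and 3 lower cannot be told apart from those shares. Before OsGRF6, LOC_Os03g51960, at a gap of 22.9 kb, went from 67.5 FPKM in wild type to 0.315 FPKM in MIM396, the opposite of OsGRF6. After OsGRF7, LOC_Os12g29990 had 39.0 and 10.8 FPKM. LOC_Os11g35040, only 0.181 kb after OsGRF8, had 4.02 and 1.47 FPKM, and LOC_Os11g35020 on the other side had 19.7 and 21.3 FPKM. Both neighbours of OsGRF9 and of OsGRF10 had 0 reads in both libraries. No member's interval overlapped another locus.

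**Figure D3:**
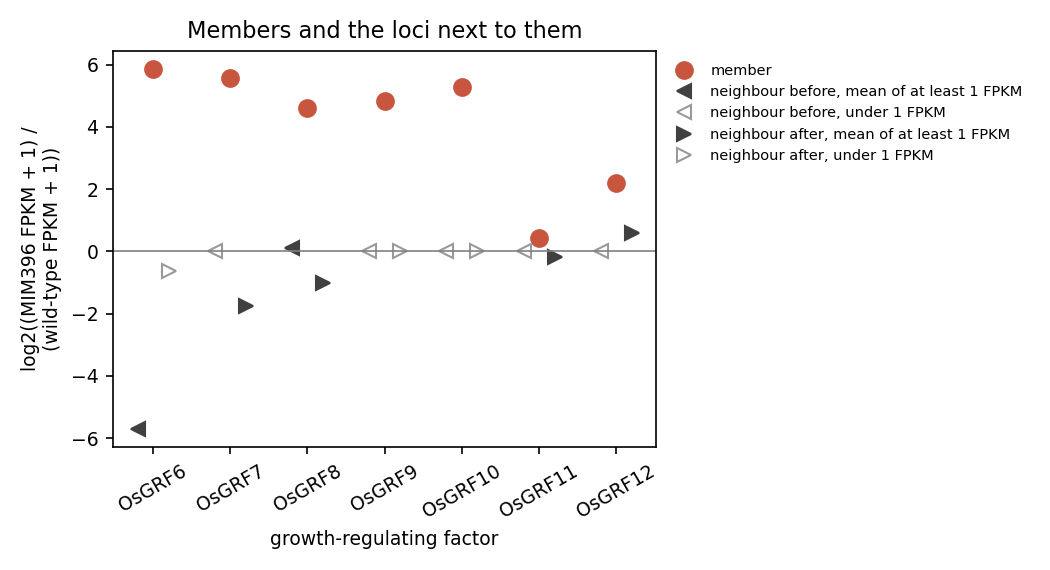
Log2 ratio of (MIM396 FPKM + 1) to (wild-type FPKM + 1) of each member (red) and of the locus before and after it on the chromosome (triangles, open where the mean is under 1 FPKM). The 6 members other than OsGRF11 stand at 2.19 to 5.86, above all of their neighbours, which run from -5.70 to 0.59.

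By levels in these libraries, the loci most like OsGRF6 were LOC_Os06g50900, LOC_Os08g39330 and LOC_Os02g55890. Likeness was the distance in log2(FPKM + 1) over 2 libraries, which is a coarse measure. For LOC_Os06g50900 the levels were 0.0413 and 63.7 FPKM, a distance of 0.0672. LOC_Os08g39330 had 0.0889 and 65.6 FPKM, and LOC_Os02g55890 had 0.0999 and 57.7 FPKM. OsGRF7 lay at a distance of 0.31, with 17 loci nearer to OsGRF6, and OsGRF11 at 4.64, with 9827 loci nearer.

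None of the 7 members was placed at an OsGRF6-GFP peak, against 0.313% of all loci in the expression table. With so low a share, 0 of 7 is near the background. The list held 142 peaks, each placed by the authors within 3 kb of a gene, from callus and not from panicles. The nearest listed peak to OsGRF6 was peak 74 (chromosome 3, 31553176 to 31554279), 1.73 Mb away, at LOC_Os03g55470, annotated as a DUF566 family protein. The wild-type level of that locus was 3.83 FPKM and its MIM396 level 27.9 FPKM. OsGRF12 was the member nearest to a peak, at 0.621 Mb from peak 94 (chromosome 4, 29544933 to 29546014), and OsGRF11 the farthest, at 5.27 Mb from peak 130 (chromosome 7, 21898279 to 21899191). The median distance was 1.94 Mb for the members and 1.02 Mb for the 55801 loci on chromosomes with a listed peak, and 0.862% of those loci lay within 10 kb of one.

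The authors' deposited table gives an FDR, an adjusted p-value, for each locus. Each FDR rests on 1 library per group, so it holds no replicate error. Nor did the FDR follow the size of a difference alone. The green tissue marker LOC_Os06g21590, with 142291 wild-type and 44 MIM396 reads, was not under 0.05, whereas others of that list were. In the authors' deposited table, 4 of the 7 members had an FDR under 0.05, all higher in MIM396, against 5.3% of the 19456 expressed loci called higher by the same rule and 8.22% called lower. The authors' deposited table lists 9.28e-07 for OsGRF6, 0.000381 for OsGRF7, 0.000654 for OsGRF9 and 0.0103 for OsGRF8. For OsGRF11 the authors' deposited table gives 0.757. OsGRF10 and OsGRF12, with 0 wild-type reads, have 0.142 and 0.120 in the authors' deposited table, although OsGRF10 had 596 reads in MIM396.

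**Figure D4:**
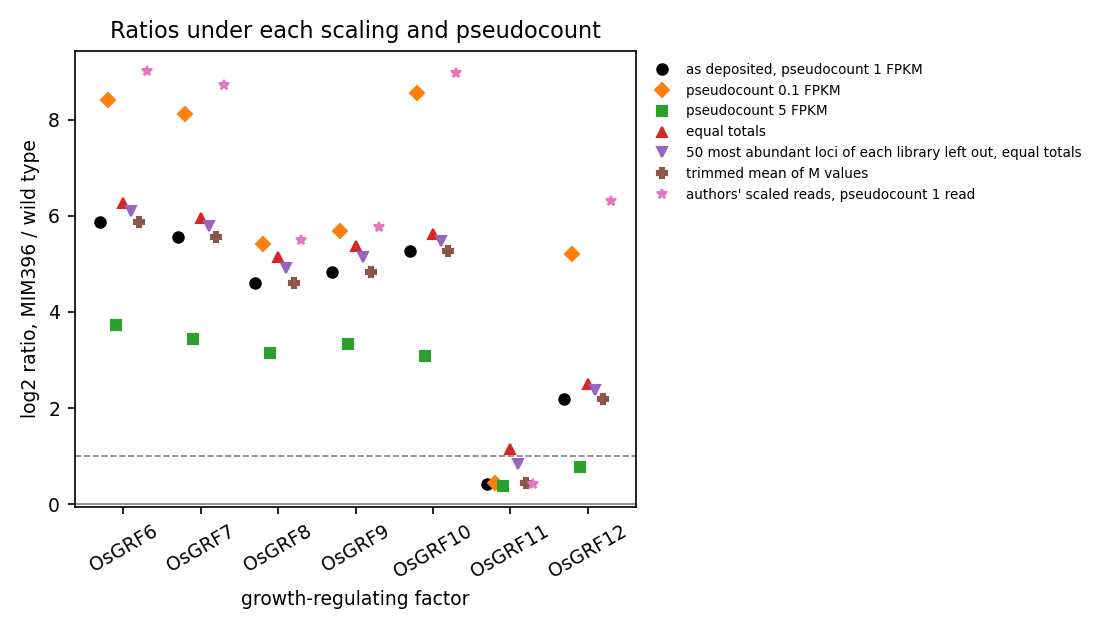
Log2 ratio of MIM396 to wild type for each member under the deposited scaling with a pseudocount of 1 FPKM (black) and 6 alternatives in scaling or pseudocount; the dashed line marks 2-fold. All points lie above 0, and the points that cross the dashed line against the black one are OsGRF11 with equal totals (1.14) and OsGRF12 with a pseudocount of 5 FPKM (0.78).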

How the data were processed

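FastQC and Bowtie are named in the submitters' processing notes. No source used here gives the counting tool, peak caller settings, genome build or library scaling. Coordinates are as deposited, and whether starts count from 0 is not stated. The deposited FPKM were computed by the authors. The deposited read signal was taken to be gene counts multiplied by 1 factor per library. This was inferred from the spacing of the values, since no source describes it. After division by that factor, 97.8% of the wild-type values above 0 and 99% of the MIM396 ones lay within 0.01 of whole reads, as did all 7 members in both. How reads shared between related genes, or strand, were handled is not given. The deposited FDR is the authors' adjusted p-value, whose test is not given. The deposited peak table gives the authors' gene placements and annotations, with positions as its only measures.

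Ratios compare FPKM + 1 between MIM396 and wild type on the log2 scale, so they understate the change of low genes. Calls were by size: 2-fold or more, at a mean of 1 FPKM or more. Levels carry exact Poisson intervals, and ratios of scaled reads exact conditional binomial (Clopper-Pearson) intervals. Reads are not independent molecules. A count of 0 was bounded at 3 reads per library. The interval and size rule were tested on simulated data. Analyses used Python 3.11.15 with scipy 1.17.1, pandas 2.3.3 and numpy 2.4.6.

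Members and lists were chosen with earlier results of these data known. All members were named, with the 3 loci nearest to OsGRF6 in level, the nearest listed peaks and the list loci. The files do not pair the loci with GRF names. The names follow the locus list used to choose them. RefSeq (ASM3414082v1) held 6 of the 7 names, all but OsGRF9, and 0 of the locus identifiers. All 6 were on the chromosome of the locus, which does not by itself pair a name with a locus. A planned search for miR396 sites and protein motifs was not run, because no sequences were used here.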

Additional observations from a re-analysis of the deposited data

How the results depend on the processing

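The count of members at least 2-fold higher was 6 under the deposited scaling and 5 to 7 under the alternatives, and none was 2-fold lower. OsGRF12 went under the 2-fold limit with a pseudocount of 5 FPKM (log2 ratio 0.78), since adding 5 FPKM exceeds its level in both libraries. OsGRF11 passed the limit with equal FPKM totals (1.14), where the median of all loci moved from 0.00 to 0.68, 40.2% of loci were 2-fold higher and 7844 were higher against 3707 lower. Relative to that median OsGRF11 stayed under 2-fold. Leaving out the 50 most abundant loci of each library moved the median to 0.39, with 6190 higher and 4250 lower. Trimmed-mean scaling left it at 0.01. With a pseudocount of 5 FPKM 2731 loci were higher and 3722 lower, against 4493 and 5310. Over the settings, the lowest log2 ratio of OsGRF6 was 3.72, and those of OsGRF11 ran from 0.37 to 1.14. Shares of the members' sum by interval length put OsGRF6 at 26.7% in MIM396 and OsGRF10, at 14.9%, above OsGRF7 and OsGRF8, at 13.3% and 13.2%. No member lay within 10 kb of a listed peak. No paired analysis was possible because each group has 1 library, and leaving out the wild-type library leaves no comparison. Counts of 2 wild-type reads limit the ratios of OsGRF6 and OsGRF7.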

Other observations

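The authors' deposited FDR separated loci with 0 wild-type reads from loci with a few. Among 232 loci with 0 wild-type reads and at least 90 MIM396 reads, a minimum chosen after the values of OsGRF12 were seen, 0 had an FDR under 0.05 in the authors' deposited table, and the lowest value was 0.0754. Among 277 loci with 1 to 3 wild-type reads and the same minimum, 264 had one, 95.3%. OsGRF10 and OsGRF12 belong to the first set and OsGRF6 and OsGRF7 to the second.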
